A study of Equus caballus with 20 samples.

Results

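Cyclic nucleotide signalling was followed in oviduct epithelium of Warmblood mares through the genes that make, break down and read out cAMP and cGMP. Members were taken by symbol: phosphodiesterases (PDE, a number and a letter A to D), adenylyl cyclases (ADCY), guanylyl cyclases (GUCY), the catalytic and regulatory subunits of protein kinase A (PRKACA, PRKACB, PRKAR), protein kinase G (PRKG) and the RAPGEF exchange factors. The rule found 54 of the 26740 features of the deposited table. No measured value entered the rule, but it was chosen with earlier results of these data known. The 54 are 22 phosphodiesterases, 10 adenylyl cyclases, 6 guanylyl cyclases, 5 protein kinase A subunits, 2 protein kinases G, 6 RAPGEF genes and 3 genes that share only the spelling. The last are PDE4DIP, an anchoring protein of centrosome and Golgi, ADCYAP1, the neuropeptide PACAP, and ADCYAP1R1, its receptor. PRKAR2A and RAPGEF6 are not analysed here.

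The study sequenced RNA of epithelial cells from where the ampulla of the oviduct meets the isthmus, 4 days after ovulation, in 4 groups of 5 biological replicates. The groups are pregnant ipsilateral (PI, pregnant mares, oviduct on the side of ovulation), pregnant contralateral (PC, the opposite oviduct of pregnant mares), cyclic ipsilateral (CI) and cyclic contralateral (CC), the last 2 from cyclic mares. No agent or genetic change is named in the labels for any group. The labels do not say which libraries came from the same mare, so p-values measure the spread between these samples.

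Adenylyl cyclases make cAMP when G protein-coupled receptors activate Gs, and guanylyl cyclases make cGMP in response to nitric oxide or natriuretic and guanylin peptides. Protein kinase A, protein kinase G and the exchange factors RAPGEF3 and RAPGEF4 (EPAC1 and EPAC2) read these messengers, and phosphodiesterases end the signal. PDE3 enzymes, PDE3A and PDE3B, hydrolyse cAMP and are held back by cGMP, which ties both messengers together. In oviduct and airway epithelium, cAMP is known for its part in ciliary beating and in fluid secretion through the chloride channel CFTR.

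Levels are TMM-normalized counts, in which each library is scaled by 1 factor. Recovered depth was 2795168 reads (PI1) to 10126484 reads (CI2), and a gene without a read could have had up to 3 reads, or 1.75 to 7.03 normalized counts depending on the library. A single feature without a symbol took 14.4% of the reads of PI1, 27.8% of PI4 and 15.4% of CI3. Of the 7 pan-epithelial markers looked for, EPCAM, CDH1, CLDN4 and CLDN7 were measured, and KRT8, KRT18 and KRT19 were not found under those symbols. Of 14 multiciliated-cell markers, 12 passed the filter on low values. All 12 had higher pregnant averages, with a median log2 difference of 0.28, and their summed level was 57719 to 75361 normalized counts in PI, 58394 to 73311 in PC, 44348 to 61606 in CI and 44106 to 67622 in CC. Stromal markers went the other way in 11 of 12 (median −0.48; summed level 1947 to 7902 in PI, 2789 to 6213 in PC, 4031 to 6153 in CI and 3019 to 9224 in CC), leukocyte markers were higher in 11 of 12 (median 0.66; 535 to 1490 in PI, 747 to 2435 in PC, 564 to 1636 in CI and 656 to 1138 in CC), and the B-cell markers CD79A and MS4A1 fell below the filter. Of 10 secretory-cell markers, 6 passed the filter, with 2 higher and 4 lower in pregnant averages (median −0.17). Scores (mean log2 levels of the markers) of the multiciliated list, the leukocyte list and the stromal list joined with smooth muscle markers are used as covariates below. No secretory score was used.

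Of the 54 members, 43 passed the filter of more than 1 CPM (reads scaled to the library total) in at least 5 libraries: 18 phosphodiesterases, 7 adenylyl cyclases, 4 guanylyl cyclases, all 5 protein kinase A subunits, PRKG1, all 6 RAPGEF genes, PDE4DIP and ADCYAP1R1. The 11 others had at most 11 reads in any library. They are ADCY1, ADCY4, the soluble cyclase ADCY10, the retinal guanylyl cyclases GUCY2D and GUCY2F, PDE4C, the photoreceptor enzymes PDE6A and PDE6C, PDE11A, PRKG2 and ADCYAP1. Transcript lengths were not used, so levels are not compared between genes.

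PDE3B, best known for lowering cAMP in fat cells, liver and pancreatic beta cells in response to insulin, had lower values in pregnant than in cyclic mares in both oviducts. It had 82.0, 237, 249, 294 and 209 normalized counts in PI1 to PI5, against 402, 390, 538, 493 and 511 in CI1 to CI5. In the opposite oviduct it had 145, 242, 269, 292 and 193 in PC1 to PC5, against 299, 566, 535, 488 and 334 in CC1 to CC5. All 10 pregnant libraries lay below all 10 cyclic ones, with the highest pregnant value at 294 (PI4) and the lowest cyclic value at 299 (CC1). Such a separation of 10 against 10 libraries, with the pregnant ones lower, was found for 4 of all 14692 features tested (0.0272%) and for no other member. Group means were 214 ± 79.9 in PI, 228 ± 59.2 in PC, 467 ± 66.8 in CI and 445 ± 121 in CC (SD, n = 5 each). In bulk RNA, fewer cells of a type and less RNA per cell cannot be told apart.

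**Figure D1:**
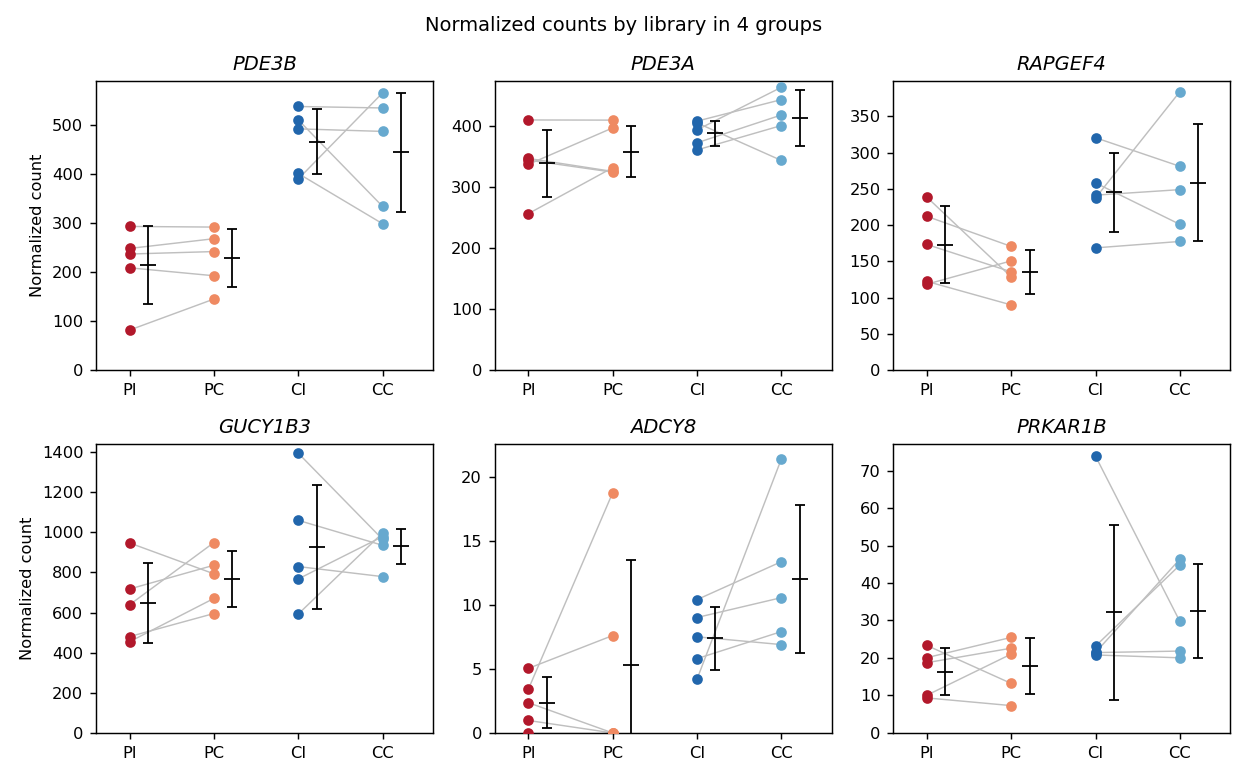
Normalized counts (y axes, linear from 0) of 6 members in the 4 groups (x axes), 1 point per library; grey lines join libraries of the same status and number, and black marks give mean ± SD (n = 5 each), cut off at 0. The PDE3B points of PI and PC all lie below those of CI and CC, whereas the other 5 genes overlap between pregnant and cyclic libraries in at least 1 oviduct.

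On the log2 scale, after adding 3.03 normalized counts (0.5 CPM), PDE3B differed by −1.22 ± 0.28 (SE) between PI and CI and by −0.95 ± 0.28 between PC and CC. With both oviducts of a status and number averaged, 5 pregnant against 5 cyclic values, the difference was −1.08 ± 0.23, with a 95% interval of −1.59 to −0.58. Unadjusted limma p-values were 0.00026, 0.00256 and 0.000534, which ranked the gene 6th, 37th and 8th of 14692 features. None passed after Benjamini-Hochberg adjustment over all features (adjusted p = 0.509, 0.997 and 0.789 by limma).

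The adjusted call for PDE3B depended on the model. It was reached in 2 alternatives, both for the averaged comparison. A limma fit that counted all 20 libraries singly gave adjusted p = 0.0327. This fit took the 2 oviducts of a status and number as separate values, though they may come from 1 mare. With the number as a random block, limma gave adjusted p = 0.139. DESeq2 on reads summed by status and number, an alternative added after seeing the data, gave adjusted p = 0.0044. edgeR on the same summed reads gave adjusted p = 0.661. Over the alternatives, adjusted p ran from 0.0682 to 1 for PI against CI, from 0.0986 to 1 for PC against CC and from 0.0044 to 1 for the average.

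The size of the PDE3B difference was given in the same direction by every alternative run for these 3 comparisons. It lay between −1.36 and −0.91 for PI against CI, between −1.08 and −0.66 for PC against CC, and between −1.20 and −0.85 for the average. PI1, the shallowest library, held 35 PDE3B reads, and without it the PI against CI difference was −0.91. With the multiciliated marker score as a covariate the differences were −1.02, −0.66 (unadjusted p = 0.0628 by limma) and −0.91. With the smooth muscle and stromal score they were −1.10, −0.85 and −0.96, and with the leukocyte score −1.24, −0.997 and −1.15.

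PDE3A, the second gene of the PDE3 family and the form of heart, vessels and oocyte, varied less. It averaged 339 ± 54.7 normalized counts in PI, 358 ± 42.0 in PC, 388 ± 20.7 in CI and 414 ± 45.9 in CC (SD, n = 5 each), and the groups overlapped. Its averaged difference was −0.21 ± 0.12 (SE), with a 95% interval of −0.46 to 0.04 and an unadjusted limma p of 0.0966. The log2 ratio of PDE3B to PDE3A in a library, which mixes transcripts of unequal length and is used only between groups, averaged −0.77 ± 0.81 in PI, −0.69 ± 0.50 in PC, 0.26 ± 0.27 in CI and 0.06 ± 0.49 in CC (SD, n = 5 each).

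Among all 14692 features, limma called 0 in each of the 7 comparisons made. For PI against CI, 514 (3.50%) had an unadjusted p under 0.05, and edgeR and DESeq2 on recovered reads also called 0, with 494 and 560 at that level. For PC against CC, 669 (4.55%) had an unadjusted p under 0.05 by limma, edgeR called 0 (838 at that level) and DESeq2 called 6 (950), none of them a member. For the average, 649 (4.42%) had an unadjusted p under 0.05 by limma, and on summed reads edgeR called 0 (756 at that level) and DESeq2 15 (922).

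Members with an unadjusted p under 0.05 all had lower values in pregnant mares. For PI against CI they were 4 of 43, beside 2.00% of all features that met this rule in that direction, namely PDE3B, PDE7B, GUCY1B3 and RAPGEF4. For PC against CC they were 4 of 43, beside 1.80% of all features, namely PDE3B, ADCY8, PRKAR1B and RAPGEF4. For the average they were 5 of 43, beside 2.17% of all features, namely PDE3B, ADCY8, GUCY1B3, PRKAR1B and RAPGEF4. In the opposite direction there were 0 members in each of the 3, beside 1.50%, 2.75% and 2.25% of all features. PDE3B and RAPGEF4 met the rule in both oviducts. Several of these unadjusted p-values did not stay under 0.05 under the alternatives run. PDE3B kept it in 26 of 26 for PI against CI, 25 of 26 for PC against CC and 25 of 25 for the average, and RAPGEF4 in 14 of 26, 26 of 26 and 25 of 25. For PI against CI, GUCY1B3 kept it in 19 of 26 and PDE7B in 14 of 25. For PC against CC, ADCY8 kept it in 21 of 25 and PRKAR1B in 15 of 25, and for the average, ADCY8 in 20 of 24, PRKAR1B in 19 of 24 and GUCY1B3 in 16 of 25.

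Taken as a list, the 43 members had a median log2 difference of −0.04 for PI against CI (all features −0.01), −0.05 for PC against CC (0.01) and −0.01 for the average (0.00). Values below 0 were found for 25, 23 and 22 of the 43 members, beside 51.9%, 48.2% and 50.1% of all features. These medians and shares lay close to those of all features.

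**Figure D2:**
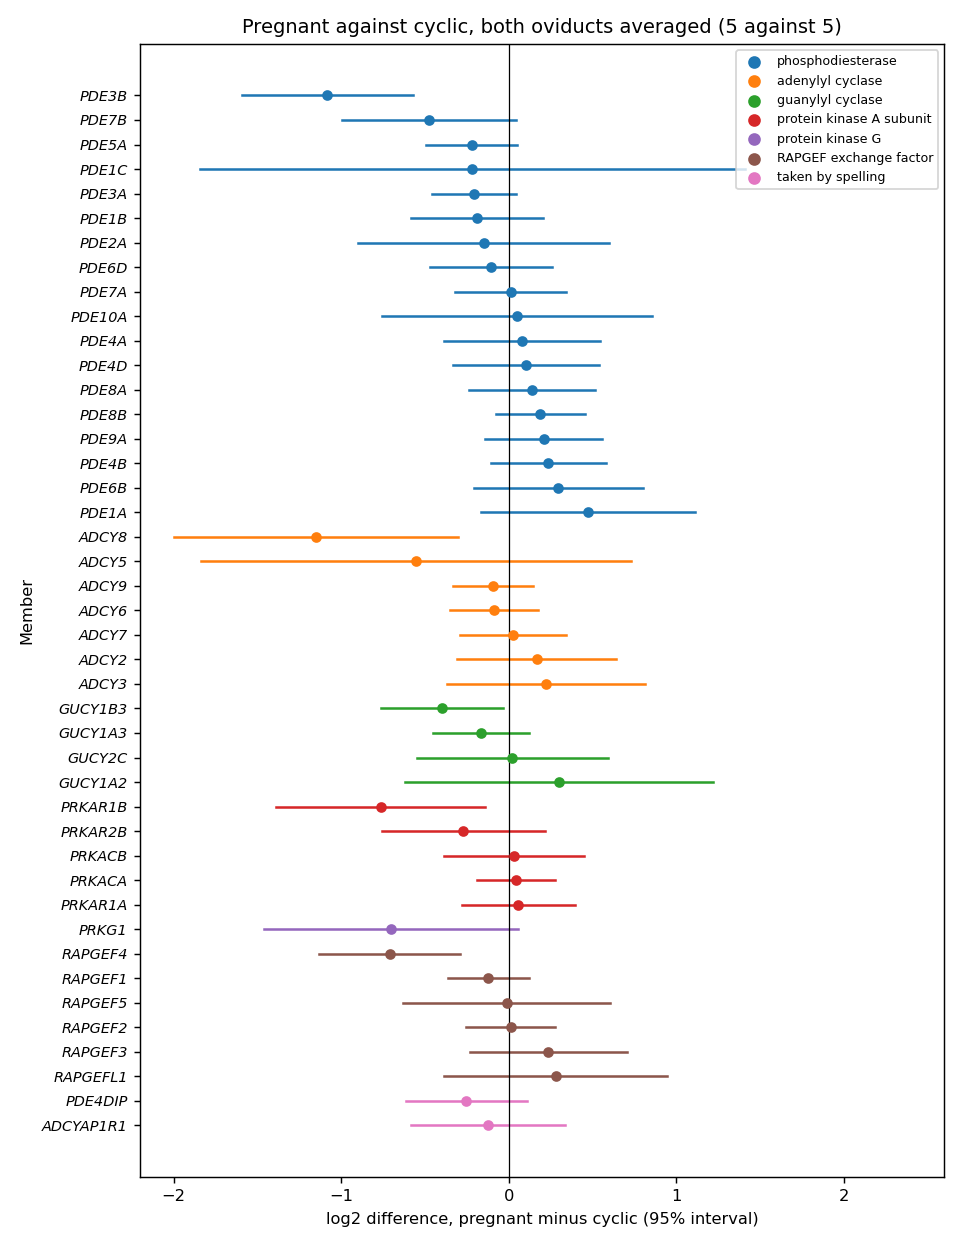
Log2 difference between pregnant and cyclic mares (x axis, pregnant minus cyclic, both oviducts averaged, n = 5 against 5) for the 43 members that passed the filter (y axis), as limma estimates with 95% intervals, coloured by family. The intervals of PDE3B, ADCY8, GUCY1B3, PRKAR1B and RAPGEF4 lie below 0; none of these genes passed adjustment over all features.

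The other phosphodiesterases showed no common direction. Apart from PDE3B, 7 of 17 had averaged differences below 0 and 10 above, from −0.48 (PDE7B) to 0.47 (PDE1A). Among calcium- and calmodulin-dependent enzymes, PDE1A differed by 0.47 ± 0.30, PDE1B by −0.19 ± 0.18 and PDE1C by −0.22 ± 0.75 (SE). PDE1A had at most 12 reads in any library. The cGMP-stimulated PDE2A differed by −0.15 ± 0.34. The cAMP-specific PDE4 enzymes, the targets of rolipram and roflumilast, were within 0.24 of no difference: PDE4A at 0.08 ± 0.21, PDE4B at 0.24 ± 0.16 and PDE4D at 0.10 ± 0.20. Of the cGMP-specific enzymes, PDE5A, the target of sildenafil, differed by −0.22 ± 0.13 and PDE9A by 0.21 ± 0.16. The interval of each of these genes included 0.

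PDE7B, a cAMP-specific enzyme, had 11.7, 8.75, 15.3, 15.1 and 14.2 normalized counts in PI1 to PI5, against 21.2, 17.9, 21.6, 23.2 and 23.6 in CI1 to CI5. All 5 PI values lay below all 5 CI values, at a low level (the floor of 3 reads reached 7.03 normalized counts in PI1). The difference was −0.63 ± 0.29 (SE; unadjusted p = 0.0406, adjusted p = 0.999 by limma). Such a separation with lower pregnant values was found for PDE3B and PDE7B among the members, beside 0.402% of all features, and with higher pregnant values for 0 members, beside 0.191%. In the opposite oviduct PDE7B overlapped, from 9.98 to 22.9 in PC and from 7.91 to 29.9 in CC, with a difference of −0.32 ± 0.29.

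Its relative PDE7A, which shares the preference for cAMP, averaged within 0.01 of no difference (0.01 ± 0.15), and the high-affinity cAMP enzymes PDE8A and PDE8B differed by 0.14 ± 0.17 and 0.19 ± 0.12 (SE). PDE10A, which hydrolyses both messengers, differed by 0.05 ± 0.37. Transcripts of the photoreceptor family were also measured: PDE6B, a catalytic subunit in rods, differed by 0.30 ± 0.23, and PDE6D, a carrier of prenylated proteins that is no enzyme itself, by −0.11 ± 0.17.

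Of the adenylyl cyclases, ADCY8, which calcium and calmodulin stimulate, had the lowest averaged difference of all 43 members but was close to the counting floor. It had 0, 0.97, 3.40, 5.03 and 2.36 normalized counts in PI1 to PI5, against 5.79, 4.17, 9.01, 10.4 and 7.50 in CI1 to CI5. In PC1 to PC5 it had 0, 0, 18.7, 7.60 and 0, against 7.91, 21.4, 10.6, 13.4 and 6.90 in CC1 to CC5. Of the 10 pregnant libraries, 4 held 0 reads, and the groups overlapped in both oviducts. The log2 differences were −0.999 ± 0.48 for PI against CI (unadjusted p = 0.051), −1.30 ± 0.48 for PC against CC (0.0135) and −1.15 ± 0.39 for the average (0.012), with adjusted p = 0.999, 1 and 0.999 by limma. These values depended on the pseudocount: the PC against CC difference was −2.52 with 0.1 CPM and −0.55 with 2 CPM, and the averaged difference was −2.13 and −0.49.

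The other 6 adenylyl cyclases had intervals that included 0. ADCY6 and ADCY9 differed by −0.09 ± 0.12 and −0.09 ± 0.11 (SE), the most closely bounded of the family, and ADCY7 by 0.02 ± 0.15. ADCY2 and ADCY3 differed by 0.17 ± 0.22 and 0.22 ± 0.27. ADCY5, a relative of ADCY6 that calcium also inhibits, differed by −0.55 ± 0.59, a wide interval of −1.84 to 0.73 that follows from its uneven levels among libraries.

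Soluble guanylyl cyclase, the receptor for nitric oxide, is a pair of an alpha and a beta subunit. GUCY1B3, the beta-1 subunit under its older symbol, had 480, 718, 947, 639 and 455 normalized counts in PI1 to PI5, against 768, 1060, 593, 1394 and 829 in CI1 to CI5. In PC1 to PC5 it had 595, 836, 793, 949 and 671, against 979, 935, 997, 965 and 779 in CC1 to CC5. Most pregnant values were below most cyclic ones, and the ranges overlapped in both oviducts. The differences were −0.51 ± 0.21 for PI against CI (unadjusted p = 0.0267), −0.29 ± 0.21 for PC against CC (0.19) and −0.40 ± 0.17 for the average (0.0347), with adjusted p = 0.999, 1 and 0.999 by limma. With library weights the averaged difference was −0.26. The alpha-1 subunit GUCY1A3 differed by −0.17 ± 0.13 and the alpha-2 subunit GUCY1A2 by 0.30 ± 0.42 on average. GUCY2C, the membrane receptor for guanylin peptides best known from intestine, differed by 0.02 ± 0.26.

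RAPGEF4 (EPAC2), which activates the small GTPases Rap when it binds cAMP, was the other member with an unadjusted p under 0.05 in both oviducts in the limma model of 4 groups, though on the ipsilateral side this depended on the setting. It had 136, 151, 171, 90.0 and 129 normalized counts in PC1 to PC5, against 249, 178, 281, 384 and 201 in CC1 to CC5. All 5 PC values lay below all 5 CC values, a separation shared with PDE3B among the members and with 0.272% of all features; the reverse order held for 0 members, beside 0.313%. On the ipsilateral side it had 173, 119, 212, 122 and 239 in PI1 to PI5, against 241, 169, 321, 238 and 258 in CI1 to CI5, and these ranges overlapped. The differences were −0.90 ± 0.24 (SE) for PC against CC (unadjusted p = 0.00107, adjusted p = 0.899), −0.52 ± 0.24 for PI against CI (0.0387, adjusted 0.999) and −0.71 ± 0.19 for the average (0.00306, adjusted 0.999), all by limma. With the leukocyte score as a covariate the 3 differences were −0.61, −0.36 and −0.43 (unadjusted p = 0.00704, 0.074 and 0.0233 by limma). Without PI1, PI4 and CI3 the PI against CI difference was −0.29. The ipsilateral p was above 0.05 in 12 of 26 alternatives, among them edgeR (0.0671), DESeq2 (0.0742), the leukocyte (0.074) and multiciliated (0.139) scores, and without PI2 (0.115), PI4 (0.11) or CI3 (0.104).

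RAPGEF3 (EPAC1), the second cAMP-gated exchange factor, differed by 0.24 ± 0.22 on average, with an interval of −0.23 to 0.70. RAPGEF1, RAPGEF2 and RAPGEF5, exchange factors of the same family without a cAMP-gated mode of the EPAC kind, differed by −0.12 ± 0.11, 0.01 ± 0.12 and −0.01 ± 0.28, and RAPGEFL1 by 0.28 ± 0.31 (SE).

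Among protein kinase A subunits, PRKAR1B, a type I regulatory subunit known mainly from neurons, had 18.7, 23.3, 9.34, 10.1 and 20.1 normalized counts in PI1 to PI5, against 23.2, 21.5, 73.8, 20.8 and 21.4 in CI1 to CI5. In PC1 to PC5 it had 22.6, 13.2, 7.29, 21.0 and 25.5, against 44.8, 46.4, 29.7, 20.04 and 21.8 in CC1 to CC5. The groups overlapped on both sides, and CI3 stood far above the other CI libraries. The differences were −0.75 ± 0.37 for PI against CI (unadjusted p = 0.0554), −0.78 ± 0.37 for PC against CC (0.046) and −0.77 ± 0.29 for the average (0.0198), with adjusted p = 0.999, 1 and 0.999 by limma. Without CI3 the PI against CI difference was −0.42 (unadjusted p = 0.222 by limma), and without PI1, PI4 and CI3 it was −0.34. The other 4 subunits had intervals that included 0: the catalytic subunits PRKACA and PRKACB at 0.04 ± 0.11 and 0.03 ± 0.19, the widely used regulatory subunit PRKAR1A at 0.06 ± 0.16, and the type II subunit PRKAR2B at −0.27 ± 0.23. PRKG1, the cGMP-dependent kinase of smooth muscle and other cells, differed by −0.70 ± 0.35 on average (unadjusted p = 0.066 by limma), from 4.24 to 30.1 normalized counts over 10 pregnant libraries and from 10.5 to 46.8 over 10 cyclic ones. The summed smooth muscle markers ran from 1119 to 1466 in PI, 1110 to 2626 in PC, 974 to 1567 in CI and 1095 to 2148 in CC. Of the 10 smooth muscle markers that passed the filter, 7 were higher and 3 lower in pregnant averages (median 0.08). The stromal markers given above were lower in pregnant averages in 11 of 12. With the smooth muscle and stromal score as a covariate the averaged PRKG1 difference was −0.61 (unadjusted p = 0.117 by limma), and with the multiciliated score it was −0.39 (0.447). Of the genes taken by spelling, PDE4DIP differed by −0.25 ± 0.17 and ADCYAP1R1 by −0.12 ± 0.21.

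**Figure D3:**
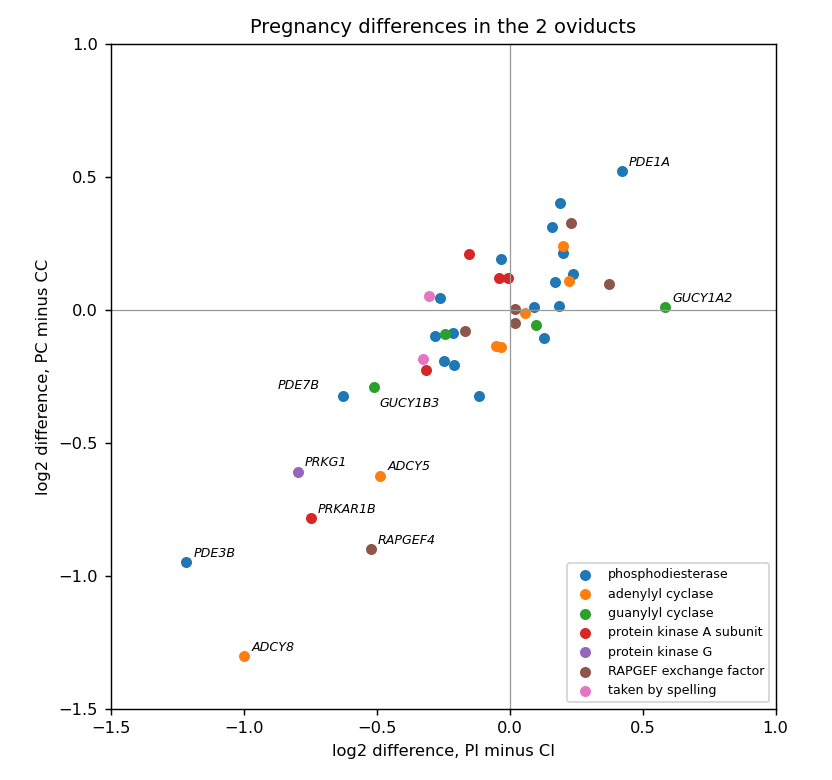
Log2 difference between pregnant and cyclic mares in the ipsilateral oviduct (x axis, PI minus CI) and in the contralateral oviduct (y axis, PC minus CC) for the 43 members, 1 point each, coloured by family. PDE3B (−1.22, −0.95) and ADCY8 (−0.999, −1.30) lie farthest to the lower left; oviducts of 1 mare may be on both axes, so the axes are not independent.

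The design also sets the oviduct on the side of ovulation against the opposite one. For these side comparisons limma called 0 of 14692 features. In pregnant mares 112 features (0.762%) had an unadjusted p under 0.05, in cyclic mares 42 (0.286%) and over both statuses 100 (0.681%), and the interaction of pregnancy and side gave 47 (0.320%). edgeR on recovered reads called 0 in all 4, with 77, 50, 71 and 39 at that level, and DESeq2 called 0 with 83, 55, 86 and 49. Members reached it in 0 of 43 cases in each of the 4 by limma without a replicate block. With the number as a random block, limma called 0 features and gave 455 in place of 112 features at that level for PI against PC. Of these, 2 were members, PRKACB (−0.46, unadjusted p = 0.0248, adjusted p = 0.828) and PDE6D (−0.31, 0.0339, adjusted 0.828). The same block gave 437 features over both statuses and 1 member, PDE10A (−0.50, unadjusted p = 0.0368, adjusted p = 0.876), and 0 members in cyclic mares and in the interaction. PDE10A had from 2 reads (PI1) to 39 reads (CI2) in a library. Without the block, the smallest member p in pregnant mares was that of PRKACB (−0.46 ± 0.24, unadjusted p = 0.0704), and in cyclic mares that of PDE10A (−0.54 ± 0.43, unadjusted p = 0.221). Values below 0 were found for 28 of 43 members in pregnant mares (all features 55.4%) for 24 in cyclic mares (48.6%), for 29 over both statuses (52.1%) and for 23 in the interaction (56.6%). Ipsilateral and contralateral groups were apart for 0 members, beside 0.0885% of features lower and 0.0476% higher in PI than in PC, and 0.0408% lower and 0.0272% higher in CI than in CC.

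PDE3B in particular was near equal on both sides. Its ipsilateral minus contralateral difference was −0.16 ± 0.28 (SE) in pregnant mares (95% interval −0.74 to 0.41) and 0.10 ± 0.28 in cyclic mares (−0.47 to 0.68). Over both statuses it was −0.03 ± 0.20 (−0.44 to 0.38), and the interaction was −0.27 ± 0.39 (−1.08 to 0.55). Signs turned under some alternatives: the pregnant difference was 0.15 without PI1, and the cyclic one −0.03 without CC1. In both, the library of the same number on the opposite side stayed in, and PC1 held the lowest PC value (145). In pregnant numbers 2 to 5 the PI and PC values were 237 and 242, 249 and 269, 294 and 292, and 209 and 193. Leaving out both libraries of a number was not tested for the side differences. These intervals come from the fit without a replicate block, which does not use the pairing by number. They still include side differences of up to 0.74 on the log2 scale in pregnant mares.

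Levels of several members followed the numbered replicate within a status. For each member the 10 pairs of oviducts with the same status and number were compared with the 40 ipsilateral-contralateral pairs of the same status but different number. The median absolute log2 difference was smaller within the same number for 35 of 43 members. This count was not made over all features, so whether it is particular to the members was not tested. Over all tested features, deviations from group means of libraries with the same number correlated at 0.53 to 0.70 (pregnant) and −0.041 to 0.679 (cyclic). PDE1C had 11.7, 105, 8.49, 106 and 15.4 normalized counts in PI1 to PI5, and 6.46, 87.7, 8.33, 71.3 and 7.76 in PC1 to PC5. Both oviducts were high in pregnant numbers 2 and 4 and low in the other 3. In cyclic mares it had 17.4, 132, 27.0, 29.6 and 17.1 in CI1 to CI5 and 9.22, 115, 40.3, 31.7 and 8.04 in CC1 to CC5, with number 2 high in both. Its median absolute log2 difference was 0.54 within and 1.60 between numbers.

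ADCY5 followed numbers in a similar way, with medians of 0.60 within and 1.27 between. It reached 163 and 98.7 normalized counts in PI5 and PC5, and 93.7 and 146 in CI3 and CC3, and its lowest value was 8.61 in PC1. PDE7A was highest within the pregnant groups in number 5, at 380 in PI5 and 287 in PC5, where the other pregnant libraries lay between 203 and 250. For PDE3B the median absolute log2 difference was 0.11 within and 0.36 between numbers. RAPGEF2 had the smallest within-number median of all members, 0.06.

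**Figure D4:**
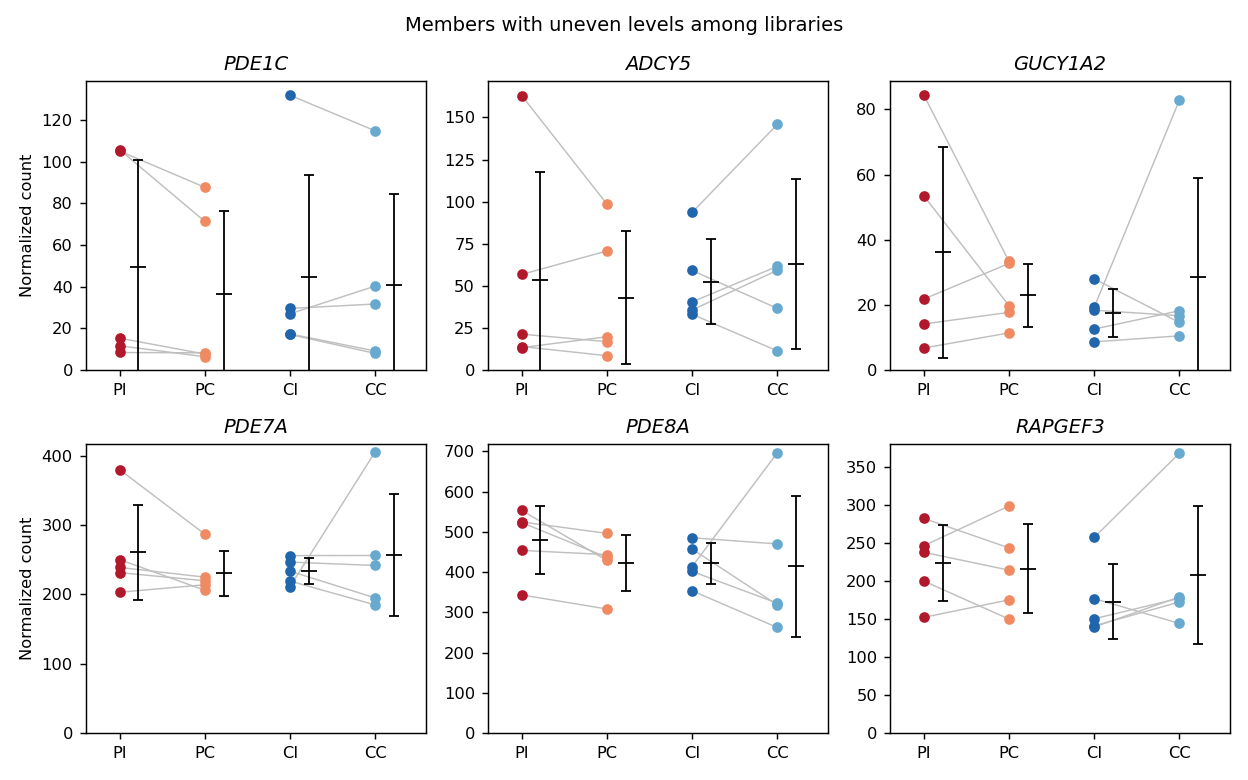
Normalized counts (y axes, linear from 0) of PDE1C, ADCY5, GUCY1A2, PDE7A, PDE8A and RAPGEF3 in the 4 groups (x axes), 1 point per library; grey lines join libraries of the same status and number, and black marks give mean ± SD (n = 5 each), cut off at 0. PDE1C is high in both oviducts for pregnant numbers 2 and 4 and for cyclic number 2, while GUCY1A2 and RAPGEF3 each have a single cyclic library (CC5 at 82.8 and CC1 at 368) far above the rest of its group.

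Other genes of the pathway were taken from 5 lists of receptors and ligands, G proteins, anchors and inhibitors, other effectors, and transcription factors with their targets. These named 133 genes beside the members, of which 73 were found and passed the filter. Adjusted calls were 0 by limma in all 7 comparisons. For PI against CI, 4 had an unadjusted p under 0.05 with lower pregnant values and 0 with higher ones. For PC against CC the counts were 7 lower and 3 higher, and for the average 8 lower and 0 higher. The background was 2.00%, 1.80% and 2.17% of all features lower and 1.50%, 2.75% and 2.25% higher. The median of the 73 was −0.04, −0.04 and −0.05, and 41, 42 and 44 of them had values below 0.

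By role, 3 of 15 receptors and nitric oxide or natriuretic peptide genes, 0 of 11 G protein genes, 2 of 22 anchors and inhibitors, 1 of 9 other effectors and 2 of 16 transcription factors and targets had an unadjusted p under 0.05 in the average, all lower. The 5 with the smallest p were CFTR, NR4A1, NPR3, NOS1 and GPR161.

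CFTR, the chloride and bicarbonate channel opened by protein kinase A, had 216, 185, 292, 181 and 344 normalized counts in PI1 to PI5, against 314, 337, 447, 535 and 496 in CI1 to CI5. In PC1 to PC5 it had 252, 256, 284, 192 and 285, against 358, 348, 535, 479 and 387 in CC1 to CC5. All PC values lay below all CC values, an order found for 0.272% of all features, and on the ipsilateral side PI5 alone reached into the CI range. Its averaged difference was −0.77 ± 0.17 (SE; unadjusted p = 0.000758, adjusted p = 0.789 by limma). With the leukocyte score as a covariate it was −0.49. The limma fit that counted 20 libraries singly, and so took oviducts that may come from 1 mare as separate values, gave CFTR an adjusted p of 0.0327.

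NR4A1, an orphan nuclear receptor whose gene cAMP and CREB induce early, had 37.5, 36.9, 21.2, 31.9 and 43.7 normalized counts in PI1 to PI5, against 57.9, 71.5, 52.2, 64.8 and 76.1 in CI1 to CI5. In PC1 to PC5 it had 29.1, 51.8, 65.6, 41.5 and 44.3, against 76.4, 128, 92.1, 56.8 and 41.4 in CC1 to CC5. The PI and CI values were apart (PI lower, an order found for 0.402% of all features), and those of PC and CC overlapped. Its averaged difference was −0.78 ± 0.18 (SE; unadjusted p = 0.000785, adjusted p = 0.789 by limma). DESeq2 on summed reads gave it an adjusted p of 0.0288.

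NPR3, which clears natriuretic peptides and has no cyclase of its own, averaged 168 ± 68.3 in PI, 162 ± 38.0 in PC, 231 ± 62.3 in CI and 271 ± 55.7 in CC (SD, n = 5 each). Its averaged difference was −0.62 ± 0.23 (SE; unadjusted p = 0.0177, adjusted p = 0.999 by limma). NOS1, a nitric oxide synthase, averaged 85.1 ± 45.2 in PI, 95.7 ± 59.4 in PC, 146 ± 31.2 in CI and 162 ± 62.9 in CC, with a difference of −0.87 ± 0.34 (unadjusted p = 0.0228, adjusted p = 0.999). With the multiciliated score as a covariate the NOS1 difference was −0.47. Both genes overlapped between pregnant and cyclic libraries. GPR161, a receptor of the primary cilium that also anchors protein kinase A, was low, with pregnant and cyclic averages of 6.87 and 10.7 normalized counts and a difference of −0.61 ± 0.26 (unadjusted p = 0.0327 by limma), which was −0.29 with a pseudocount of 2 CPM.

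**Figure D5:**
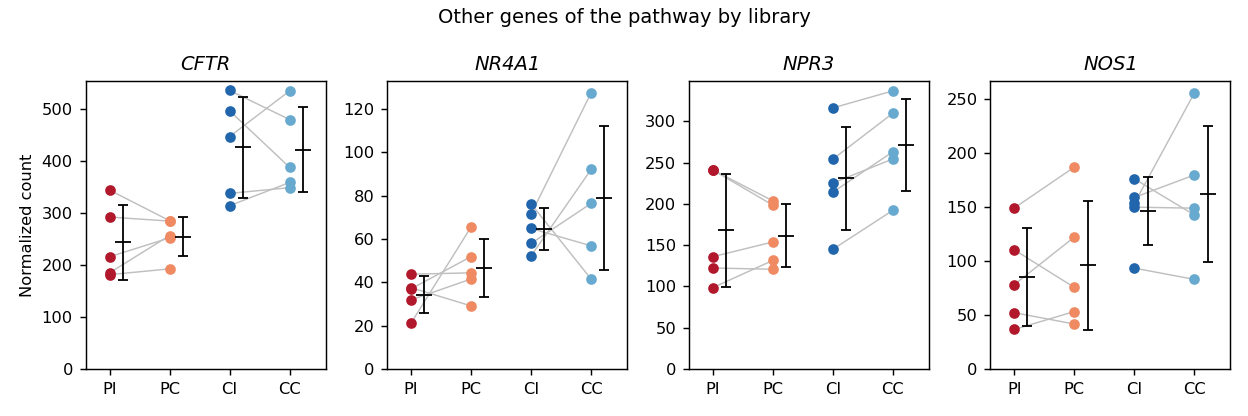
Normalized counts (y axes, linear from 0) of CFTR, NR4A1, NPR3 and NOS1 in the 4 groups (x axes), 1 point per library; grey lines join libraries of the same status and number, and black marks give mean ± SD (n = 5 each). PC and CC are apart for CFTR, PI and CI are apart for NR4A1, and the groups overlap for NPR3 and NOS1.

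For PC against CC the 5 pathway genes with the smallest p also included PTH1R, the receptor for parathyroid hormone, at −1.19 ± 0.39 (unadjusted p = 0.00651), and ABCC4, an exporter of cyclic nucleotides, at −0.36 ± 0.15 (0.0238), each with an adjusted p of 1 by limma. With the multiciliated score as a covariate the PTH1R difference was −0.58. The 3 pathway genes higher in PC than in CC were PTGER2 (0.45), AKAP14 (0.45) and AKAP1 (0.29), none with an adjusted call. All PC values of PTGER2 lay above all CC values (161 to 234 against 114 to 145), an order found for 0.313% of all features. In the side comparison of pregnant mares SCTR, the Gs-coupled secretin receptor, was the only gene of these lists with an unadjusted p under 0.05, at 0.78 ± 0.35 (unadjusted p = 0.0354, limma), beside 0.361% of all features in that direction.

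The pattern of PDE3B over the 20 libraries was most like that of SLC35F1 (Pearson r = 0.877), TAS2R41 (0.876), NCAM1 (0.872), NAALAD2 (0.858) and AQP9 (0.857), chosen among all features with a symbol by the highest r of log2 values. These r carry no p, and the points share library depth and the 4 groups. SLC35F1, a putative solute carrier, averaged 46.9 ± 22.8 normalized counts in PI, 71.0 ± 35.2 in PC, 132 ± 27.0 in CI and 120 ± 44.2 in CC (SD, n = 5 each). NCAM1, a neural cell adhesion molecule, averaged 151 ± 93.7 in PI, 207 ± 160 in PC, 557 ± 177 in CI and 430 ± 287 in CC. AQP9, a channel for water and glycerol, averaged 880 ± 543 in PI, 979 ± 596 in PC, 1743 ± 442 in CI and 1821 ± 842 in CC. Of the members, ADCY8 (0.781), GUCY1B3 (0.63) and PDE7B (0.608) had the highest r with PDE3B, and RAPGEF3 (−0.554) the lowest.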

How the data were processed

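RNA sequencing libraries of oviduct epithelium from 20 samples in 4 groups of 5 were analysed. The table of the authors gives, for every gene, a signal: read counts after TMM scaling, with 1 factor per library. Whole reads were recovered from the steps of these values: 100.0% came out whole within 0.01 reads. Per the labels' protocols the kit was a stranded total RNA kit with depletion of ribosomal RNA, while another label names polyA RNA. CASAVA 1.8 stands in the submitters' processing notes. For the aligner, counter, strand setting, build and annotation no information is given in the sources used here, so overlapping and antisense genes are uncertain and no coordinates are printed.

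Features above 1 CPM in at least 5 libraries (14692 of 26740) were tested with limma 3.58.1 (R 4.3.3; trend and robust moderation) on log2 of the value plus 0.5 CPM, with Benjamini-Hochberg adjustment at 0.05 over all of them and two-sided tests. A model of 4 group means over all 20 libraries gave 6 contrasts; the averaged comparison used the mean log2 value of both oviducts per status and number. Deviations of PI and PC libraries of the same number from their group means correlated at 0.53 to 0.70 in 5 of 5 pairs, and those of CI and CC at −0.041 to 0.679 (3 of 5 over 0.1), so the block by number is given beside the side comparisons. edgeR 4.0.16, DESeq2 1.42.0, other scalings, pseudocounts, filters, weights, covariates and left-out libraries were alternatives. The procedure was tested on simulated counts drawn independently for each library. That test does not cover correlation between libraries of the same number. Counting intervals and floors cover counting error only.

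Members are named in every comparison where their unadjusted p was under 0.05, PDE3B always, members otherwise only by family; of other pathway genes at most 5 with the smallest p are named per comparison, and the 5 features most correlated with PDE3B. The 3 pathway genes with an unadjusted p under 0.05 and higher values in PC than in CC are named as well. The members and lists were chosen with earlier results of these data known.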

Additional observations from a re-analysis of the deposited data

Results flagged for a closer look

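In 10 of the 172 groups of 5 libraries tested (43 members in 4 groups), 1 library lay far from the other 4 by Dixon's criterion (critical value 0.71); chance marks about 1 in 20 groups. Among cyclases, GUCY1A2 had 82.8 normalized counts in CC5, where the other CC libraries had 10.5 to 18.2, GUCY1A3 had 601 in PI3, where the others had 429 to 471, and GUCY1B3 had 779 in CC5, where the others had 935 to 997. Among phosphodiesterases, PDE1C had 132 in CI2, where the others had 17.1 to 29.6, and PDE1A had 1.11 in PC5, where the others had 6.43 to 7.54, a level at which 1.11 is a single read. PDE7A was high in both oviducts of pregnant number 5, with 380 in PI5 (others 203 to 250) and 287 in PC5 (others 206 to 225). Among effectors, PRKAR1B had 73.8 in CI3 (others 20.8 to 23.2), PRKAR2B had 158 in PI2 (others 75.6 to 86.6), and RAPGEF3 had 368 in CC1 (others 144 to 179). No library of PDE3B, RAPGEF4 or ADCY8 was marked in this way. For 0 members did the 2 statuses have side differences of opposite sign in every numbered pair.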

How the results depend on the processing

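Counts of called genes stayed at 0 in every comparison and alternative except 6. For PC against CC, 1 gene was called with CPM without TMM, 6 with library weights, 1 with log2 total reads as a covariate and 6 with DESeq2. For the average, 16 were called when 20 libraries counted singly, and 15 by DESeq2 on summed reads, added after seeing the data; PDE3B was the only member among either. Leaving out 1 library gave 0 called genes throughout. The PDE3B side differences turned sign. Where libraries were left out, those of the same number on the opposite side stayed in. In pregnant mares (−0.16) the value was 0.060 without PI1, PI4 and CI3 and 0.019 with log2 total reads, and −0.31 to 0.15 over single libraries left out. In cyclic mares (0.10) it was −0.025 with library weights and −0.026 to 0.20 over single libraries. Over both statuses (−0.03) it was 0.055 without the 3 libraries, 0.007 with the smooth muscle and stromal score, 0.015 with log2 total reads, 0.007 by edgeR, 0.014 by DESeq2 and −0.11 to 0.12 over single libraries. The interaction (−0.27) was 0.010 without the 3 libraries, 0.007 with log2 total reads and −0.42 to 0.041 over single libraries; the cause was not tested. Among the 5 libraries of the opposite side and the same status, 16 of the 20 libraries correlated best with the one of their own number. Across the 20 pairs of the same number but other status, r ran from −0.396 to 0.587 (PI2 with CI2). The replicate block called 0 genes in every comparison, with PDE3B at adjusted p = 0.302, 0.705 and 0.139 (random block) for PI against CI, PC against CC and the average. Under this block the genes with an unadjusted p under 0.05 also numbered 214 in place of 42 for CI against CC and 225 in place of 47 for the interaction. With depths down to 2795168 reads, ADCY8, PDE7B, PRKAR1B, PDE1A, PDE10A and PRKG1 rest on few reads.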
